A study of Mus musculus with 9 samples.

Results

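The 10 genes described here encode the serine/arginine-rich (SR) splicing factors Srsf1, Srsf2, Srsf3, Srsf5, Srsf6, Srsf7, Srsf10 and Srsf11 and the transformer-2 proteins Tra2a and Tra2b. They were taken by symbol from a table of 16509 genes, and all 10 passed the filter on low counts that left 11949 genes for testing. SR proteins bind exonic enhancer sequences through RNA recognition motifs and recruit the spliceosome through their serine/arginine-rich domains, and several also accompany mRNA to the cytoplasm. The Tra2 proteins, mammalian relatives of a fly sex-determination factor, bind GAA-rich enhancers. Many of these genes control their own output through poison exons, whose inclusion sends the transcript to nonsense-mediated decay.

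RNA of MC38 cells, a mouse colon carcinoma line, was sequenced in 9 libraries, 3 from each of 3 groups. Ctrl cells received the vehicle, which the sample labels give as DMSO and the study's methods as PBS. Cu-Cys cells received copper with cystine, and Cadict cells received a nanodrug built from copper and cystine that also carries glucose oxidase and GE11, a peptide that targets EGFR. Columns of the deposited table named CC and CCGE were read as Cu-Cys, from its initials, and as Cadict, from its components. All groups are of 1 cell line, no dose or exposure time was taken from the sources for these libraries, and nothing in the labels says that libraries of a group came from separate cultures, so that p-values measure the spread between these libraries.

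The libraries held 17905771 to 18293056 expected counts (reads estimated per gene) each, with 1651 to 20244 counts for a single one of the 10 genes in a library. In Cadict libraries the 100 most abundant genes took 29.8% to 31.1% of all counts, against 17.2% to 17.4% in Ctrl and 17.9% to 18.2% in Cu-Cys. The composition of the libraries therefore differed between groups, and the choice of scaling moved every Cadict comparison: the log2 fold change of the median gene in Cadict against Ctrl was -0.13 with TMM scaling and -1.08 with library totals. Of the epithelial and colon markers, 7 of 8 were in the table, with a summed TPM (a level scaled for transcript length and library total) of 4.22 to 6.26 in Ctrl, 3.5 to 3.95 in Cu-Cys and 11.5 to 13.2 in Cadict libraries. Epcam, the epithelial adhesion molecule, was listed at 0 TPM in Ctrl and Cu-Cys, Krt18, a simple-epithelial keratin, reached at most 2 counts, and Krt8, its partner, at most 17. Krt19, another keratin, at 2.25 TPM in Ctrl, 2.01 in Cu-Cys and 8.96 in Cadict, and the epithelial cadherin Cdh1, at 2.52, 1.47 and 2.70 TPM, made up most of the sum. Both were called higher in Cadict against Ctrl at 2-fold with TMM (log2 fold changes of 3.35 and 1.39, adjusted p = 4.54e-11 and 3.19e-09, edgeR), with 2.40 and 0.44 under library totals. Of the leukocyte, fibroblast and endothelial markers, 8 of 10 were in the table and summed to 261 to 283 TPM in Ctrl, 132 to 139 in Cu-Cys and 21.1 to 26.8 in Cadict, nearly all from the collagen gene Col1a2, at 248, 124 and 22.1 TPM. Their part in the results below was not tested, and in bulk RNA fewer cells of a type cannot be told apart from less RNA per cell.

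Per unit of transcript length, the scale on which genes can be compared with each other, the 10 genes changed order between groups. In Ctrl, Srsf2 (SC35, an SR protein that stays in the nucleus) was the most abundant, at 451 ± 20.2 TPM (SD, n = 3), followed by Srsf3 at 387 ± 8.10, Srsf5 at 310 ± 19.3 and Srsf1 at 238 ± 7.77. Srsf7, Srsf10 and Tra2b followed between 204 and 216 TPM with neighbouring ranges that overlapped, and Srsf6 (167 ± 8.23), Tra2a (144 ± 5.15) and Srsf11 (117 ± 5.04) came last. The order in Cu-Cys began and ended with the same genes, and there the ranges of Srsf5 and Srsf1 overlapped, as did those of Srsf7 with Tra2b and of Tra2b with Srsf10. In Cadict, Srsf3 led at 605 ± 3.96 TPM, ahead of Srsf7 at 482 ± 18.3, Tra2b at 404 ± 29.4 and Tra2a at 350 ± 25.9. Srsf2 stood at 316 ± 18.8 TPM there, with a range that overlapped that of Tra2a, which in turn overlapped that of Tra2b. Srsf1 came next at 206 ± 26.1 TPM, its range apart from those of Srsf2 and Srsf6. Srsf6, Srsf5 and Srsf10 followed between 106 and 121 TPM, with neighbours among them overlapping, and Srsf11 was again lowest at 49.3 ± 3.87. The ratio of Srsf7 to Srsf5 TPM was 0.698 ± 0.0457 in Ctrl, 0.765 ± 0.0510 in Cu-Cys and 4.54 ± 0.279 in Cadict.

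**Figure D1:**
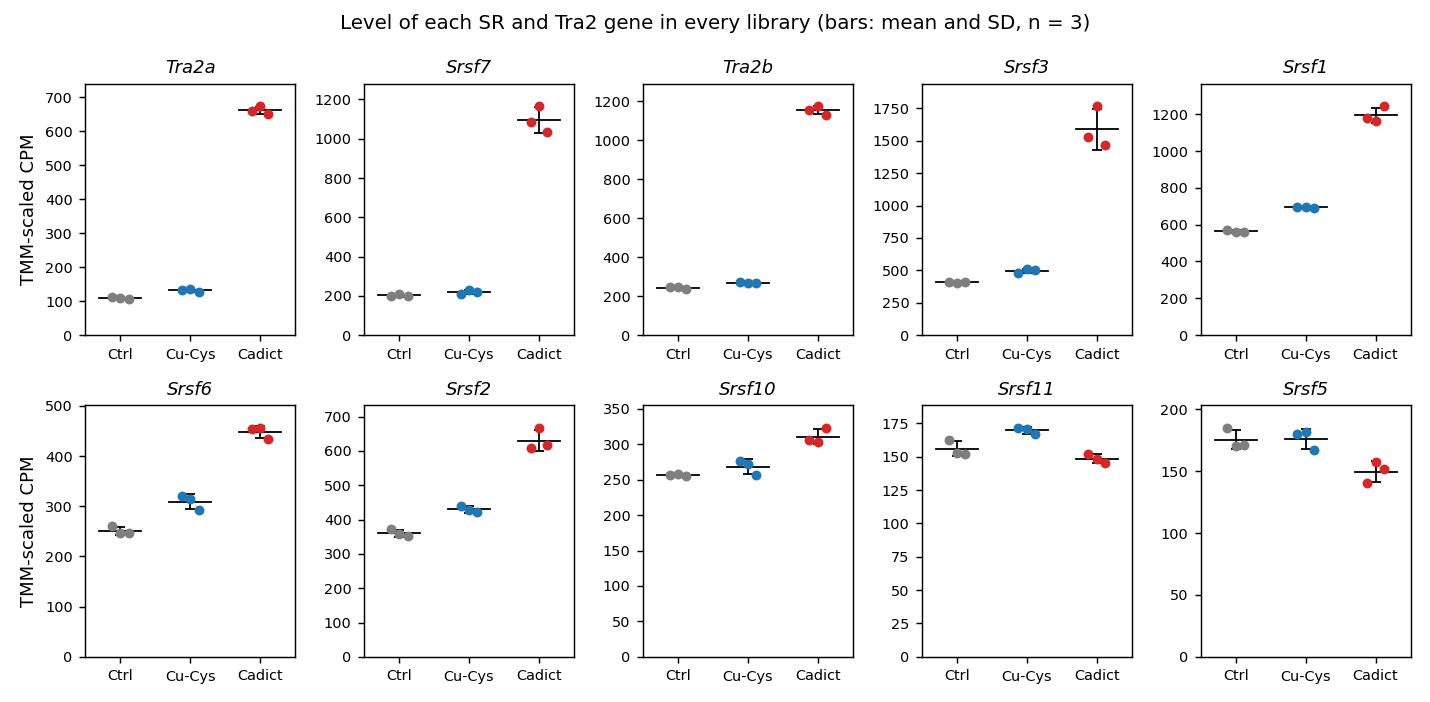
TMM-scaled counts (CPM, scaled to a common library total) of the 10 genes in each of the 9 libraries, with a panel per gene, each axis starting at 0, and bars for the group mean and SD (n = 3). Cadict libraries of Tra2a, Srsf7, Tra2b and Srsf3 lie far above the other libraries, whereas those of Srsf11 and Srsf5 lie slightly below those of Ctrl with this scaling, a direction that turned for Srsf11 with DESeq2 size factors.

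To compare the groups, counts were scaled by TMM, which assumes that most genes do not change, and tested with edgeR's quasi-likelihood test. In Cadict against Ctrl, 8 of the 10 genes rose and 1 fell at an adjusted p of at most 0.05, where 40.6% of all genes tested rose and 47.1% fell. By this test most genes changed in that comparison, so the assumption named for TMM was not met there. At the study's stricter threshold, a 2-fold change with an adjusted p of at most 0.001, 5 were called higher and 0 lower, where 20.7% of all genes were called higher and 27.1% lower. The median log2 fold change was 0.96 over the 10 genes and -0.13 over all genes tested. With library totals in place of TMM, 5 of the 10 rose and 5 fell, with medians of 0.0067 over the 10 genes and -1.08 over all genes. Tra2a, Srsf7, Tra2b and Srsf3 were higher in Cadict under each scaling and unit used. The direction of Srsf1, Srsf2, Srsf6, Srsf10 and Srsf11 depended on the scaling or unit, and Srsf5 was lower under each.

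The 2 Tra2 genes rose together. Tra2a read 111, 110 and 107 CPM in the Ctrl libraries, 133, 135 and 127 in Cu-Cys and 661, 673 and 652 in Cadict. All 3 Cadict libraries were about 5 times any other, and the Cu-Cys libraries lay just above Ctrl without overlap. Tra2a was thus 6.06-fold higher in Cadict than in Ctrl, a log2 fold change of 2.60 (SE 0.05, adjusted p = 4.46e-16), the largest of the 10. Tra2b, the more abundant paralog, read 246, 248 and 238 CPM in Ctrl, 270, 266 and 265 in Cu-Cys and 1157, 1173 and 1131 in Cadict. The Cadict libraries again stood apart, and the small step from Ctrl to Cu-Cys was also free of overlap. Its log2 fold change in Cadict against Ctrl was 2.24 (SE 0.05, adjusted p = 1.16e-15, edgeR), a 4.72-fold difference. With library totals the log2 fold changes were 1.65 for Tra2a and 1.29 for Tra2b. Alongside the larger rise of Tra2a, the Tra2b to Tra2a ratio of TPM passed from 1.42 ± 0.0162 in Ctrl to 1.27 ± 0.0508 in Cu-Cys and 1.15 ± 0.00785 in Cadict (SD, n = 3), with no overlap between Cadict and the other groups.

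Srsf3 and Srsf7, small SR proteins that serve as adaptors of the mRNA export receptor NXF1, followed. Srsf7 read 199, 209 and 197 CPM in Ctrl, 211, 231 and 222 in Cu-Cys and 1085, 1164 and 1033 in Cadict. Every Cadict library exceeded 4 times the highest Cu-Cys library. The log2 fold change against Ctrl was 2.44 (SE 0.06, adjusted p = 4.69e-15, edgeR) with TMM and 1.48 with library totals. Srsf3 read 410, 405 and 411 CPM in Ctrl, 480, 508 and 502 in Cu-Cys and 1529, 1764 and 1468 in Cadict. The Cadict libraries were the most spread of any gene of the family, the second library being highest, and still lay wholly above the others. The log2 fold change against Ctrl was 1.96 (SE 0.06, adjusted p = 1.44e-13, edgeR) with TMM and 1.00 with library totals.

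These 4 genes carried the rise, so the DNA just upstream of their start sites is shown, as the 250 bases before the RefSeq start (build GRCm38.p6, written 5′ to 3′ on the gene's strand). The sequences lie at chr6:49264053-49264302 on the minus strand for Tra2a, chr16:22266006-22266255 on the minus strand for Tra2b, chr17:29032410-29032659 on the plus strand for Srsf3 and chr17:80207306-80207555 on the minus strand for Srsf7. Capitals mark TGACG or its reverse complement CGTCA, the half-site of the cAMP response element.

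Tra2a: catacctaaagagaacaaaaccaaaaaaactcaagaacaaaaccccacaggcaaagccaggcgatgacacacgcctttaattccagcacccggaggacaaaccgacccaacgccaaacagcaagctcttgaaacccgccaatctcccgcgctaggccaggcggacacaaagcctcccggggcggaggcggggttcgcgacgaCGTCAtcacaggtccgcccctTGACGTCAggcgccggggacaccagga

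Tra2b: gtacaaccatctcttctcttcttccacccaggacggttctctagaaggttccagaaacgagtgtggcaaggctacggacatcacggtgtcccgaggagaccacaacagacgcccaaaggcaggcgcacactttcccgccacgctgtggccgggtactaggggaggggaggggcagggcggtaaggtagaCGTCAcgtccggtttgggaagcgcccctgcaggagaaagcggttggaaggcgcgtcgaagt

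Srsf3: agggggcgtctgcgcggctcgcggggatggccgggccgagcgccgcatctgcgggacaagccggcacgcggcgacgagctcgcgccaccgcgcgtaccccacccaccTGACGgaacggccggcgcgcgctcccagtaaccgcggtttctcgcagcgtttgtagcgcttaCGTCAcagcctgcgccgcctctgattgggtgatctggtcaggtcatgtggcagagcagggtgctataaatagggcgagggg

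Srsf7: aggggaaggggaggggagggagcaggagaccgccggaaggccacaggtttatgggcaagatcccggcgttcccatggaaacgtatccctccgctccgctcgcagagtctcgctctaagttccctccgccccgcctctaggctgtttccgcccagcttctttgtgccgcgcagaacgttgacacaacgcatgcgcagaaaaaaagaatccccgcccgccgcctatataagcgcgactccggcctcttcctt

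The full palindrome TGACGTCA was found in the Tra2a window alone among the 11 promoters of the 10 genes in the RefSeq table (Srsf11 has 2), beginning 27 bases before the start site. The full element was in 2.53% of the 12235 promoters of tested genes and in 1.55% of all 32851 promoters. The half-site was in 8 of the 11 promoters, against 26.5% of promoters of tested genes. A full element contains a half-site on each strand, so that these searches overlap. It was present once in Tra2b and at 2 places in Srsf3, and it was not found in the Srsf7 window. The half-site was also in the promoters of Srsf1, Srsf5, Srsf6 and Srsf10 and in 1 of those of Srsf11, whose fold changes in Cadict were smaller than those of the 4 genes. The GC box GGGCGG or its complement CCGCCC was in 10 of the 11, against 57.9% of promoters of tested genes, and CCAAT or ATTGG was in 4, against 36.0%. TATAAA or TTTATA was in 2, those of Srsf2 and Srsf3, against 6.27%. The ETS motif CCGGAAG or CTTCCGG was in 4 (13.8% of promoters of tested genes), the heat shock motif GAANNTTC in 1, that of Tra2b (4.87%), and the E-box CACGTG in 0 (8.26%). A match describes letters in these windows and says nothing of binding.

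The SR proteins Srsf1, Srsf2 and Srsf6 rose less. Srsf1, a founding member of the family that also takes part in mRNA export and translation, read 572, 560 and 557 CPM in Ctrl, 696, 694 and 691 in Cu-Cys and 1178, 1165 and 1242 in Cadict. The 3 groups followed each other without overlap. Its log2 fold change in Cadict against Ctrl was 1.09 (SE 0.05, adjusted p = 3.02e-12, edgeR) with TMM, 0.13 with library totals and -0.22 on the log2(TPM + 1) scale. Srsf6, which carries a pair of RNA recognition motifs, read 260, 247 and 246 CPM in Ctrl, 320, 314 and 292 in Cu-Cys and 455, 455 and 434 in Cadict. Srsf2 read 372, 357 and 351 CPM in Ctrl, 440, 427 and 422 in Cu-Cys and 607, 666 and 617 in Cadict. For both genes the groups were again ordered Ctrl, Cu-Cys, Cadict without overlap. The log2 fold changes against Ctrl were 0.84 for Srsf6 (SE 0.05, adjusted p = 2.64e-10) and 0.81 for Srsf2 (SE 0.05, adjusted p = 3.77e-10) with TMM in edgeR, but -0.12 and -0.15 with library totals.

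Srsf10, Srsf11 and Srsf5 had the smallest log2 fold changes of the 10 in Cadict against Ctrl with TMM. Srsf10, which turns into a general splicing repressor when dephosphorylated in heat shock, read 257, 257 and 254 CPM in Ctrl, 276, 272 and 256 in Cu-Cys and 306, 303 and 323 in Cadict. Its log2 fold change in Cadict against Ctrl was 0.28 (SE 0.05, adjusted p = 5.61e-05, edgeR) with TMM and -0.67 with library totals. Srsf11, a nuclear protein that binds U2AF, read 162, 153 and 152 CPM in Ctrl, 171, 171 and 167 in Cu-Cys and 152, 148 and 145 in Cadict. The lowest Ctrl and the highest Cadict library of Srsf11 both read 152 CPM, and the difference of -0.07 (SE 0.05, adjusted p = 0.18, edgeR) did not pass the test with TMM, was 0.05 with DESeq2 size factors and was -1.02 with library totals. Srsf5, an SR protein first described as a growth-response gene, read 185, 171 and 171 CPM in Ctrl, 180, 182 and 167 in Cu-Cys and 140, 157 and 151 in Cadict. It was the only one of the 10 to fall with TMM, by 0.23 on the log2 scale (SE 0.06, adjusted p = 0.00152, edgeR), and fell by 1.19 with library totals, but with DESeq2 size factors its difference of -0.11 did not pass the test (adjusted p = 0.0802).

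The order of the 10 genes in Cadict against Ctrl was the same with TMM, DESeq2 size factors and library totals, which shift all genes by nearly the same amount. Set against the median gene of that comparison, Tra2a stood 2.73 above the median gene on the log2 scale, Srsf7 2.56, Tra2b 2.37, Srsf3 2.08, Srsf1 1.21, Srsf6 0.96, Srsf2 0.93, Srsf10 0.40 and Srsf11 0.06 above it, and Srsf5 stood at -0.11. Srsf2 and Srsf6 had the closest profiles of any pair, at a Euclidean distance of 0.13 between their centred log2 CPM over the 9 libraries, followed by Srsf7 and Tra2a and by Srsf5 and Srsf11, both at 0.26. Tra2a and Srsf5 were farthest apart, at 3.83.

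**Figure D2:**
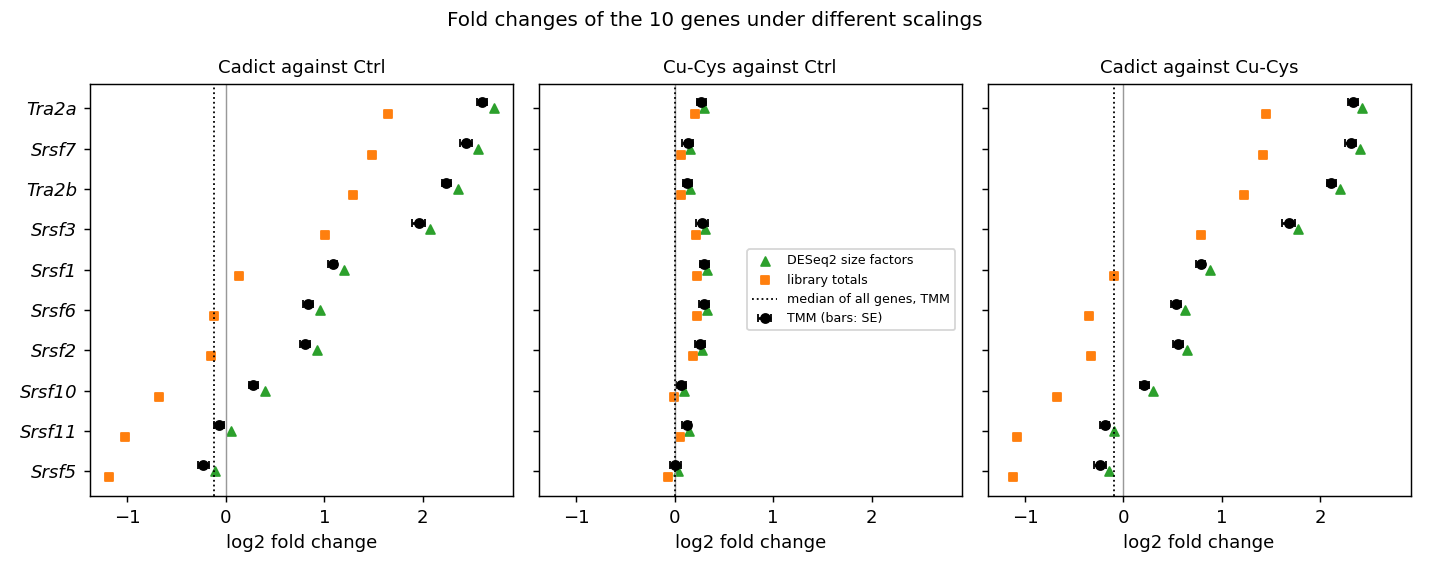
Log2 fold change of each of the 10 genes in the 3 comparisons with TMM (circles, bars for the SE), DESeq2 size factors (triangles) and library totals (squares), beside the median of all genes with TMM (dotted line). Library totals shift the Cadict comparisons to the left by a common amount, and Tra2a, Srsf7, Tra2b and Srsf3 stay right of 0 under all 3 scalings.

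The comparison of Cu-Cys with Ctrl, which asks what copper and cystine did without the other components, gave small differences. With edgeR and TMM, 7 of the 10 genes rose and 0 fell at an adjusted p of at most 0.05, where 22.6% of all genes rose and 22.4% fell. The 3 that did not rise were Srsf7 (0.13, adjusted p = 0.0655), Srsf10 (0.07, adjusted p = 0.281) and Srsf5 (0.0061, adjusted p = 0.945), and none of the 10 was lower at an unadjusted p under 0.05 or fell under any alternative run. The log2 fold changes of the 10 ran from 0.0061 for Srsf5 to 0.30 for Srsf1, with a median of 0.19 against 0.0067 over all genes. None was called at the stricter threshold, either higher (0.167% of all genes) or lower (1.47%). Srsf1 (0.30, SE 0.05, adjusted p = 0.000105), Srsf6 (0.30, SE 0.05, adjusted p = 0.000273) and Srsf3 (0.28, SE 0.06, adjusted p = 0.00193) led, followed by Tra2a (0.27, SE 0.05, adjusted p = 0.000339) and Srsf2 (0.26, SE 0.05, adjusted p = 0.000859). Tra2b (0.13, adjusted p = 0.0291) and Srsf11 (0.12, adjusted p = 0.0453) passed narrowly in edgeR. Tra2b lost the call when any 1 Ctrl or Cu-Cys library was left out (adjusted p of 0.0572 to 0.119), and Srsf11 did so without Ctrl library 2 or 3, any 1 Cu-Cys library or Cadict library 1 (0.0512 to 0.156). With library totals both lost it, at 0.061 for Tra2b (adjusted p = 0.298) and 0.052 for Srsf11 (adjusted p = 0.417), and the median of the 10 was 0.13. Srsf7 gained the call without Cadict library 2 or 3 (adjusted p of 0.00673 and 0.0377), with DESeq2 size factors (0.16, adjusted p = 0.0298), with the DESeq2 Wald test (0.13, adjusted p = 0.00683) and with only the 2 groups fitted in edgeR (0.13, adjusted p = 0.00786). On the log2(TPM + 1) scale with limma, 1 of the 10 rose.

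In Cadict against Cu-Cys, the test of whether the treatments differed from each other, 8 of the 10 rose (40.3% of all genes tested) and 2 fell (45.6%), and 4 were called higher at the stricter threshold (18.6%) and 0 lower (23.6%). The 4 called were Tra2a (log2 fold change 2.33, SE 0.05, adjusted p = 1.87e-15), Srsf7 (2.31, SE 0.06, adjusted p = 1.17e-14), Tra2b (2.11, SE 0.05, adjusted p = 3.26e-15) and Srsf3 (1.68, SE 0.06, adjusted p = 1.01e-12), by edgeR. With library totals they were 1.45, 1.42, 1.22 and 0.79. Srsf1 stood at 0.79, Srsf2 at 0.55, Srsf6 at 0.54 and Srsf10 at 0.21 with TMM, and at -0.10, -0.33, -0.35 and -0.67 with library totals. Srsf5 and Srsf11 fell by 0.24 and 0.19 with TMM. The comparisons with Ctrl share the Ctrl libraries, and the comparisons of Cadict share the Cadict libraries, so their values stand side by side here and are not independent.

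The 10 genes together held 0.345% ± 0.00746 of all counts in Ctrl, 0.382% ± 0.00528 in Cu-Cys and 0.482% ± 0.00711 in Cadict (SD, n = 3). A percent of all counts amounts to scaling by library totals and depends on that choice. A share of the summed counts of the 10 genes, by contrast, is free of any scaling between libraries. Within that sum, Srsf3, Srsf7, Tra2a and Tra2b, a set chosen after their values were seen, held 34.8% to 35.8% in Ctrl, 34.4% to 35.9% in Cu-Cys and 59.5% to 62.3% in Cadict. Srsf7 gained most, from 7.40% ± 0.265 in Ctrl to 14.8% ± 0.424 in Cadict, a difference of 7.42 percentage points. Tra2b gained 6.68 points, Srsf3 6.49 and Tra2a 4.97. Each of the other 6 held a smaller share. The shares of a library make up a fixed whole, so gains of 4 genes lower the rest together, whatever their levels. Among these 6, Srsf1, Srsf2, Srsf6 and Srsf10 rose with TMM. Srsf10 went from 9.40% ± 0.129 to 4.22% ± 0.264, and Srsf5 from 6.44% ± 0.196 to 2.03% ± 0.0896. For Srsf11 the shares were 5.72% ± 0.118 and 2.01% ± 0.0774. Srsf1, the largest part of the sum in Ctrl at 20.7% ± 0.0848, held 16.2% ± 1.03 in Cadict, where Srsf3 was the largest at 21.5% ± 1.36. The size of these differences depended on the unit. As shares of summed TPM, Srsf5 differed by -8.79 points (-4.41 on counts) and Srsf1 by -2.26 (-4.45 on counts), and Srsf3, Srsf7, Tra2a and Tra2b together held 38.9% ± 0.565 in Ctrl and 67.1% ± 1.06 in Cadict. With 3 libraries a group the exact two-sided permutation test cannot go below p = 0.1, which was the value for each of the 10 shares in Cadict against Ctrl and against Cu-Cys (0.111 after adjustment over 30 tests).

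**Figure D3:**
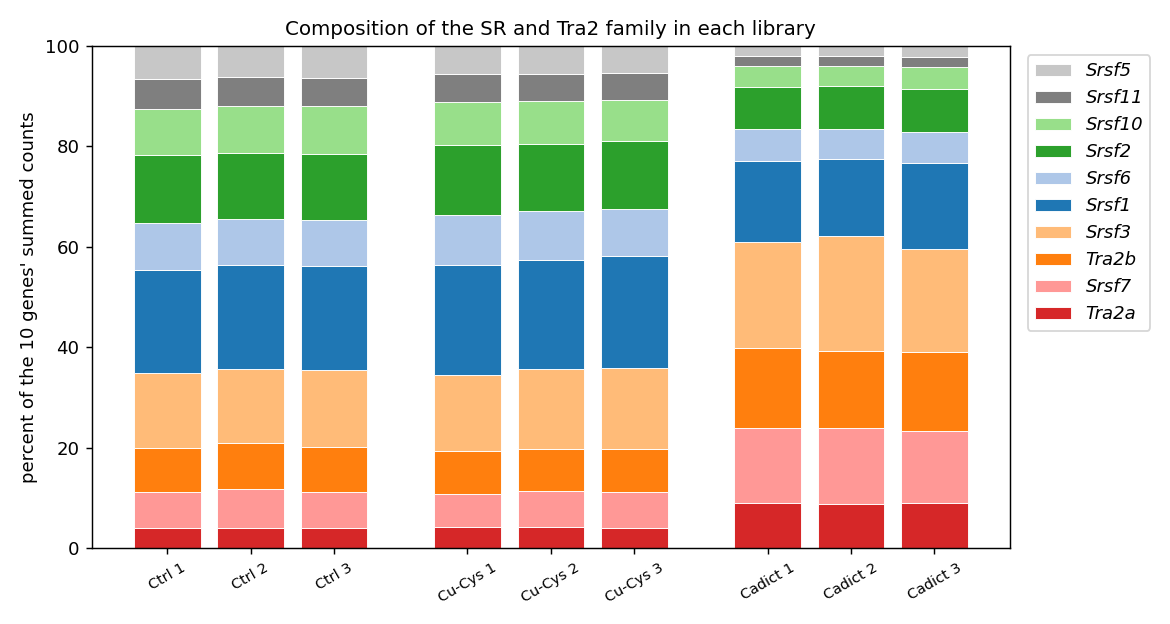
Percent of the summed counts of the 10 genes held by each gene in each of the 9 libraries, stacked to 100. Tra2a, Srsf7, Tra2b and Srsf3, at the bottom of each bar, reach 59.5% to 62.3% in Cadict libraries and 34.4% to 35.9% in the others.

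In Cu-Cys the shares of counts moved by at most 1.27 percentage points, for Srsf1, from 20.7% to 21.9%. On summed TPM the largest difference was that of Srsf5, at -1.61 points, and Srsf1 differed by 0.71. Srsf10 and Srsf5 held 0.92 and 0.87 points less than in Ctrl, at 8.48% ± 0.226 and 5.57% ± 0.179. The ranges of Srsf2, Srsf3 and Srsf7 overlapped between Cu-Cys and Ctrl (exact permutation p = 0.2 each). The 4 genes together held 35.3% ± 0.772 in Cu-Cys and 35.4% ± 0.488 in Ctrl.

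Gene counts sum over isoforms and do not separate productive transcripts from those with a poison exon, but the ratio of count to TPM within a gene follows the effective length, which RSEM, among the tools the submitters list, averages over isoforms. GENCODE M21 (GRCm38) lists at least 1 transcript of the nonsense-mediated decay class for 9 of the 10 genes, all but Srsf10. Srsf11 showed the clearest change. Its implied effective length was 2850 ± 34.2 bases in Ctrl, 2786 ± 21.9 in Cu-Cys and 2617 ± 39.7 in Cadict (SD, n = 3). The lengths in bases were computed from the count, the library total and the deposited FPKM (a level relative to length and library). The Cadict value was 8.10% shorter than that of Ctrl by the ratio of count to TPM (limma on the log2 ratio, adjusted p = 0.000444). The median absolute change over the 9119 genes tested was 0.866% and the 95th percentile 9.39%. It was 5.94% shorter than that of Cu-Cys (adjusted p = 0.00215, limma). Whether a change of isoforms lies behind it cannot be read from the gene table.

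**Figure D4:**
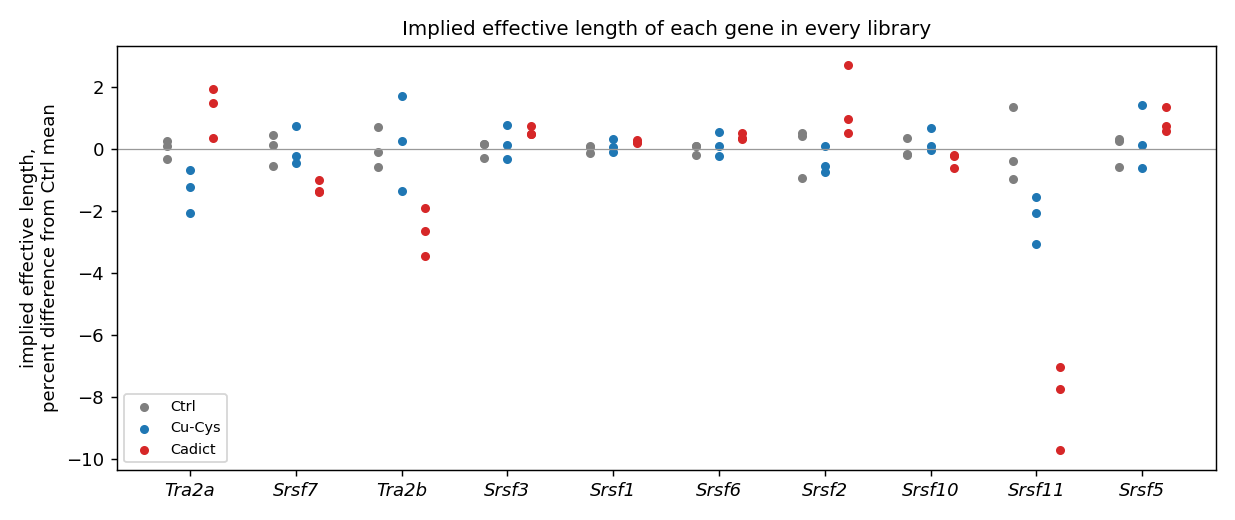
Implied effective length (from the deposited count, FPKM and library total) of each gene in every library, as the percent difference from its Ctrl mean. The Srsf11 points of Cadict lie 7% to 10% below Ctrl, and the points of the other genes lie within 4% of it.

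At an adjusted p of at most 0.05, 7 of the 10 genes changed in implied effective length in Cadict against Ctrl, where 43% of all genes did, 0 changed in Cu-Cys against Ctrl (0.011%; 2 of the 10, Srsf11 and Tra2a, at an unadjusted p under 0.05, limma) and 6 in Cadict against Cu-Cys (28.3%). Besides Srsf11 the changes were small. In bases, the means of Srsf3, Srsf5 and Srsf6, all called, were 2252, 1207 and 3214 in Ctrl and 2265, 1218 and 3227 in Cadict. Those of Srsf1, not called, were 5037 and 5049. These steps were similar in bases at unlike lengths, and centring on the library median does not remove such a shift. Whether the calls reflect isoforms was not tested. Tra2b was 2.61% shorter in Cadict than in Ctrl (adjusted p = 0.0247, limma), a call lost when any 1 Ctrl or Cadict library was left out, and Tra2a was 1.31% longer (adjusted p = 0.0117, limma) and 2.75% longer than in Cu-Cys (adjusted p = 0.00101, limma). The first count was 2 to 4 when a Ctrl or Cadict library was left out. The second, of Cadict against Cu-Cys, was 3 without any 1 library other than Cu-Cys library 3.

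The 3 remaining SR genes did not follow the 4 that rose most. Srsf4 read 81, 74 and 77 CPM in Ctrl, 88, 83 and 85 in Cu-Cys and 72, 73 and 77 in Cadict, with overlapping Ctrl and Cadict libraries (log2 fold change -0.06, SE 0.06, adjusted p = 0.346, edgeR), a value that was 0.06 with DESeq2 size factors and -1.01 with library totals. Srsf9, the lowest of the tested SR genes in CPM, fell by 0.28 in Cadict against Ctrl (SE 0.06, adjusted p = 0.000643, edgeR) and by 1.23 with library totals. Srsf12 did not pass the filter on low counts.

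Of the enzymes and carriers that act on SR proteins (SRPK, CLK and related kinases, phosphatases and the nuclear import receptor), 12 of 13 were tested, of which 9 rose (40.6% of all genes tested) and 3 fell (47.1%) in Cadict against Ctrl. Their median log2 fold change was 0.45 and turned to -0.51 with library totals. Clk2, a nuclear kinase of SR proteins, moved most. It read 28, 27 and 29 CPM in Ctrl, 30, 25 and 27 in Cu-Cys and 7.05, 6.71 and 5.29 in Cadict. It fell by 2.15 on the log2 scale (SE 0.11, adjusted p = 2.49e-11, edgeR), a log2 fold change of -3.10 with library totals. Its paralog Clk1 went the other way, at 48 CPM in Ctrl and 124 in Cadict on average, a log2 fold change of 1.37 (SE 0.05, adjusted p = 1.61e-12, edgeR) that was 0.42 with library totals and 0.06 on the log2(TPM + 1) scale. Ppp1cb, a catalytic subunit of protein phosphatase 1, rose by 1.28 (SE 0.07, adjusted p = 1.28e-10, edgeR), with 0.33 under library totals and -0.03 on the TPM scale. In Cu-Cys against Ctrl 3 of the 12 rose, close to the 22.6% of all genes that did, and 0 fell (22.4%). There, Clk1 (-0.01), Clk2 (-0.04) and Ppp1cb (0.06) did not pass the test.

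Of 35 SR-related proteins tested from a list of 37 (proteins with serine/arginine-rich stretches and their splicing partners), 24 rose (40.6% of all genes tested), 9 fell (47.1%) and 2 did neither in Cadict against Ctrl, with a median of 0.58 that was -0.38 with library totals. Rsrp1, an arginine/serine-rich protein, read 39, 34 and 31 CPM in Ctrl, 43, 39 and 42 in Cu-Cys and 315, 319 and 299 in Cadict. Its log2 fold change of 3.18 (SE 0.08, adjusted p = 4.87e-15, edgeR) exceeded that of Tra2a and stayed at 2.22 with library totals. U2af1, the small subunit of the factor that recognises the 3′ splice site, rose by 2.38 (SE 0.06, adjusted p = 9.4e-15, edgeR) and Zranb2, a zinc-finger SR-related protein, by 2.23 (SE 0.05, adjusted p = 5.35e-15, edgeR), with 1.43 and 1.28 under library totals. In Cu-Cys against Ctrl 19 of the 35 rose (22.6% of all genes) and 0 fell (22.4%).

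All 26 hnRNP proteins of the list, which often counter SR proteins at splice sites, were tested, and 23 rose (40.6% of all genes tested) and 2 fell (47.1%) in Cadict against Ctrl, with a median of 1.04 (0.09 with library totals). Hnrnpc, which binds uridine tracts, read 262, 257 and 261 CPM in Ctrl, 301, 301 and 294 in Cu-Cys and 1271, 1368 and 1206 in Cadict. Its log2 fold change was 2.30 (SE 0.05, adjusted p = 3.81e-15, edgeR), close in size to those of Tra2b and Srsf7, and 1.35 with library totals. Hnrnph2, which binds runs of guanosine, rose by 1.95 (SE 0.06, adjusted p = 4.17e-14, edgeR) and Hnrnpa2b1 by 1.65 (SE 0.05, adjusted p = 7.83e-14, edgeR), with 1.00 and 0.69 under library totals. In Cu-Cys against Ctrl 18 of the 26 rose (22.6% of all genes) and 1 fell (22.4%).

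**Figure D5:**
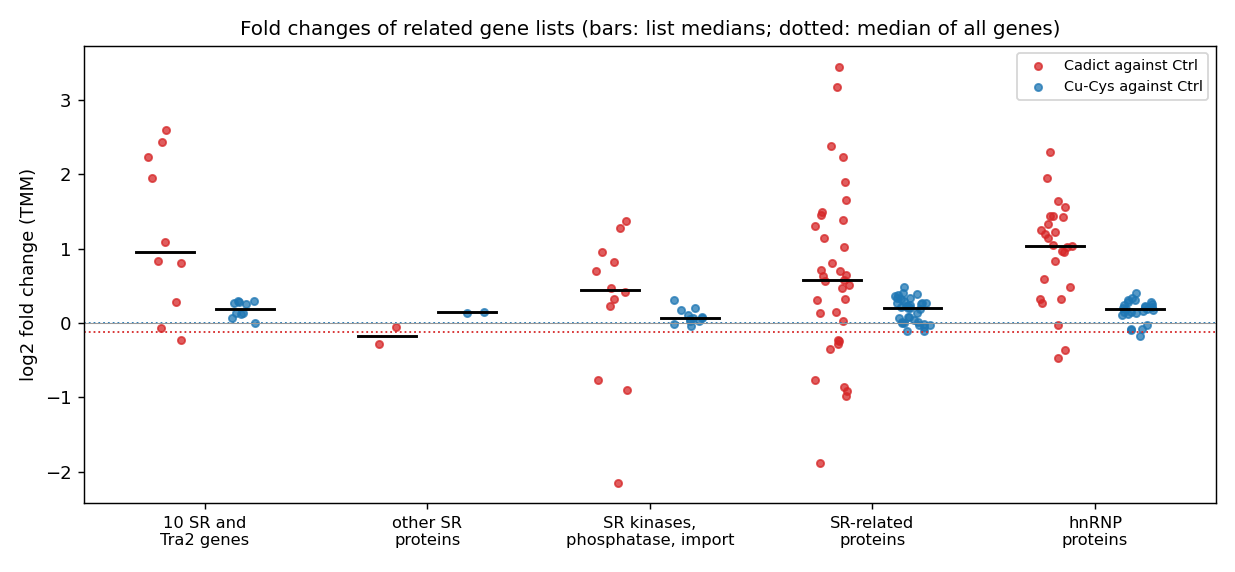
Log2 fold changes (TMM) of the tested genes of 5 lists in Cadict against Ctrl and in Cu-Cys against Ctrl, with a bar for the list median and dotted lines for the medians of all genes. Medians in Cadict run from -0.17 for the other SR proteins to 1.04 for the hnRNP proteins, those of the kinase and SR-related lists turning below 0 with library totals, and in Cu-Cys from 0.07 to 0.20.

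Outside the family, the 3 genes whose profile over the 9 libraries lay nearest to the mean profile of the 10, among 11647 genes compared, were Ssb, which encodes the RNA-binding La protein, Mtrex, a helicase of the nuclear exosome, and Pla2g12a, a secreted phospholipase. Their Euclidean distances of centred log2 CPM were 0.10, 0.11 and 0.11. In Cadict against Ctrl they differed by 1.18, 1.21 and 1.20 on the log2 scale, and in Cu-Cys against Ctrl by 0.16, 0.22 and 0.26. Such values follow from how these genes were picked. The members themselves ran from -0.23 for Srsf5 to 2.60 for Tra2a in Cadict against Ctrl, so the mean profile stands for few of them.

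Reads of some members can be shared with other genes. Of the 50-base stretches in GENCODE M21 transcripts, 20.7% of those of Srsf2 also occur on either strand of another gene's transcripts, 13.1% with Mettl23, as do 7.98% to 10.3% of those of Tra2b, Srsf3, Srsf5 and Srsf10, mainly in gene models without a given name. For Srsf1, Srsf7 and Srsf11 the share was at most 0.882%, and Srsf6 and Tra2a had none. By this measure the values of Srsf2, Srsf3, Srsf5, Srsf10 and Tra2b could be the less certain ones. In the libraries themselves, Srsf2 alone of the 10 genes had expected counts that were not whole numbers, such as 8600.95 in Ctrl library 1. How many reads were shared was not tested.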

How the data were processed

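RNA of 9 MC38 libraries was taken from the authors' single gene table. Per the labels and the submitters' processing notes, which list tools without roles, HISAT2 2.1.0, Bowtie2 2.3.4.3, RSEM 1.3.1 and the builds GRCm39 and GRCh38.p13 were used. The labels name a column kit and DNA nanoballs, the methods TRIzol and an Illumina Novaseq. The authors deposited, for each gene and library, an expected count (not normalized), a TPM and an FPKM (both relative to length and library). A further normalized column and group averages were not used.

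Expected counts were rounded, filtered with filterByExpr, scaled by TMM and fitted in R 4.3.3 with edgeR 4.0.16 (quasi-likelihood, 9 libraries, 3 groups). The p-values were adjusted by Benjamini-Hochberg over 11949 genes. TPM, FPKM and the count to TPM ratio (genes with a mean TPM of at least 5, centred per library) were tested with limma 3.58.1 on the log2 scale, with a pseudocount of 1 for TPM and FPKM. DESeq2 1.42.0 gave size factors and a Wald test as alternatives. Other scalings, filters, units, a replicate block and leaving out each library were tried. Shares were compared by exact permutation. The edgeR and limma steps were tested on simulated data. TMM factors were 1.26 to 1.27 in Ctrl, 1.21 in Cu-Cys and 0.640 to 0.665 in Cadict, and 3 counts equal 0.164 to 0.168 CPM before TMM.

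Named genes were the 10 members, all other SR genes, the 3 with the largest absolute log2 fold change in Cadict against Ctrl (mean TMM CPM of at least 10) of each of 3 related lists, the 3 nearest profiles and the marker lists. Members and lists were chosen with earlier results of these data known. Promoters came from RefSeq (GRCm38.p6), where all 10 genes were matched.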

Additional observations from a re-analysis of the deposited data

How the results depend on the processing

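With TMM, each of the 10 genes kept its direction and its side of the threshold in both Cadict comparisons when any 1 library was left out (90 of 90 refits in each). Tra2a, Tra2b, Srsf3 and Srsf7 rose in both under every alternative. The main dependence is on scaling, since library totals shift the median gene of Cadict by -0.95 relative to Ctrl and -0.88 relative to Cu-Cys, and why the units differ further was not tested. The depth did not limit these genes.

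Counts of members in Cadict against Ctrl, with 8 rising and 1 falling in the main analysis, were 5 and 5 with library totals, 4 and 6 with limma on log2(TPM + 1) or log2(TPM + 0.1), and 5 and 5 with log2(FPKM + 1). The count falling was 0 with DESeq2 size factors and 2 with at least 10 counts in every library or with no filter. At 2-fold, 2, 3 and 2 were called higher with log2(TPM + 1), log2(FPKM + 1) and log2(TPM + 0.1), and 3, 1 and 3 lower, with 2 lower under library totals. In Cadict against Cu-Cys, 4 rose under library totals and all limma settings, and 5, 6, 5 and 6 fell with library totals, log2(TPM + 1), log2(FPKM + 1) and log2(TPM + 0.1), against 1 with DESeq2 size factors. There, 2 were called higher at 2-fold with either TPM setting, and 2, 2, 1 and 2 lower in the same order. In Cu-Cys against Ctrl, 1 rose with log2(TPM + 1) and 0 with log2(TPM + 0.1).

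Directions turned as follows, in log2 fold changes in the order library totals, log2(TPM + 1), log2(FPKM + 1), log2(TPM + 0.1). In Cadict against Ctrl, Srsf2 was -0.15, -0.51, -0.17 and -0.51, Srsf6 -0.12, -0.47, -0.12 and -0.47, and Srsf10 -0.67, -1.01, -0.66 and -1.02. Srsf1 was -0.22 with either TPM setting. Srsf11 was 0.049 with DESeq2 size factors and 0.010 with the DESeq2 Wald test. In Cadict against Cu-Cys, Srsf1 was -0.10, -0.37, -0.10 and -0.37, Srsf2 -0.33, -0.63, -0.36 and -0.63, Srsf6 -0.35, -0.62, -0.35 and -0.62, and Srsf10 -0.67, -0.93, -0.66 and -0.94. In Cu-Cys against Ctrl, Srsf5 was -0.063, -0.14, -0.067 and -0.14, Srsf10 -0.0033, -0.079, -0.0071 and -0.080, and with the TPM settings Srsf7 was -0.0088 and -0.0089 and Tra2b -0.014 and -0.014. Srsf5 was also -0.018 with at least 10 counts in every library, -0.00059 with only those groups fitted, and -0.017 to 0.046 with 1 library left out. Of the differences in share, 31 moved by more than the spread between replicates with summed TPM or with all 13 SR and Tra2 genes as the denominator, and none turned direction. Medians under library totals turned to -0.51 and -0.50 for SR kinases and carriers, -0.38 and -0.44 for SR-related proteins (Cadict against Ctrl and against Cu-Cys) and -0.051 for hnRNP proteins against Cu-Cys.

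With 1 library left out, 2 to 7 of the 10 changed in implied effective length between Cadict and Ctrl, and 3 to 6 between Cadict and Cu-Cys. With a replicate block these counts were 4 and 3, and 5 rose in Cu-Cys against Ctrl, where Tra2b (adjusted p = 0.0529) and Srsf11 (0.0679) lost their calls. Same-numbered libraries did not deviate together (correlations of -0.20 to 0.17 over 8551 genes), so the numbers were not taken to pair them.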
